A study of Mus musculus with 6 samples.

Results

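The genes of major histocompatibility complex (MHC) antigen presentation were compared between kidney epithelial cultures with and without Cre-mediated deletion of Setd2. The set holds 49 of the 48526 genes counted. Its members are the protein-coding genes of GENCODE M21 whose symbol begins with H2-, the name of the mouse MHC, together with B2m, Tap1, Tap2, Tapbp, Tapbpl, Psmb8, Psmb9, Psmb10, Psme1, Psme2, Erap1, Nlrc5, Ciita, Cd74 and Cd274. By role, 26 belong to class I, 11 to class II and 10 to peptide processing and loading, with the inhibitory ligand gene Cd274 apart. The remaining member, H2-Ke6, lies in the MHC but encodes a hydroxysteroid dehydrogenase (Hsd17b8) and no presenting chain.

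RNA was sequenced from primary renal tubular epithelial cells of mouse, cultured from digested kidney cortex. The 3 KO libraries came from Setd2(F/F)Ksp-Cre+ mice, in which both Setd2 alleles are floxed and Cre is driven by the Ksp-cadherin (Cdh16) promoter of tubule epithelium. The 3 WT libraries came from Setd2(F/F) littermates, labelled SETD2-proficient, which carry the same floxed alleles and for which no Cre is named. Mice of both groups were 4 to 5 weeks old, and all cultures received EGF at 20 ng/ml and hydrocortisone, a glucocorticoid, at 100 nM. Cre and the Setd2 deletion cannot be told apart, since every KO culture carried Cre. The protocols name no step that selects tubular cells, and the sources used here do not say whether replicates were separate animals and name neither strain nor MHC haplotype. The p-values therefore measure the spread between these libraries. The mm10 reference carries 1 MHC haplotype, and reads of another would be counted against it.

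Class I molecules are built from a heavy chain and the invariant light chain beta-2-microglobulin, and display peptides from inside nearly every nucleated cell to CD8 T cells. The peptides are cut by the proteasome, whose inducible catalytic subunits form the immunoproteasome, moved into the endoplasmic reticulum by the TAP transporter, loaded with the help of tapasin and trimmed by ERAP1. Class II molecules present material taken up from outside to CD4 T cells and are normally made by professional antigen-presenting cells, although kidney tubule cells can be induced to make them. NLRC5 and CIITA are the transactivators of class I and class II genes, and interferon raises many genes of the pathway.

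Libraries held 86078636 to 106974842 counts. Setd2 was at 163, 154 and 158.5 CPM (counts relative to the library total, scaled by TMM factors) in KO and at 184.5, 168 and 152 CPM in WT (log2 fold change -0.08 ± 0.08, SE; adjusted p = 0.481, edgeR). These counts cover the whole gene, so they do not check a deletion of some of its exons. KO replicates 2 and 3 were Xist-positive (507 and 606 CPM), and Ddx3y, Kdm5d, Eif2s3y and Uty, on the Y chromosome, were at most 0.084 CPM in them. KO replicate 1 and the 3 WT libraries were Xist-negative (at most 0.683 CPM), with Ddx3y at 51.05 to 66.89 CPM. By these genes KO replicates 2 and 3 were female and the other libraries male, so sex was partly confounded with genotype. The epithelial genes Krt8, Krt18, Cdh1, Epcam, Cdh16 and Pax8 were all expressed, with Krt8 at 2593 CPM in KO and 2587 CPM in WT. Of 12 tested tubule markers 4 were higher in KO (33.3%) and none was lower, against 12.0% and 9.08% of all genes tested. The 4 were Lrp2, the proximal tubule receptor megalin (17.3 CPM in KO and 10.0 CPM in WT), Slc12a3 (1.95 CPM in KO and 1.16 CPM in WT), Pax2 (63.4 CPM in KO and 44.6 CPM in WT) and Cdh16 (884 CPM in KO and 735 CPM in WT). Slc34a1, a phosphate transporter of the proximal tubule, had next to no reads (0.0038 CPM in KO and 0 in WT).

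Genes of class I were higher in KO, while genes of class II and of processing did not pass the test. After a filter on low counts, 30 of the 49 members could be tested. Of these, 12 were higher in KO at an adjusted p below 0.05 (edgeR quasi-likelihood test, Benjamini-Hochberg over all 17571 genes tested), against 12.0% of all genes tested, and no member was lower, against 9.08% (21.0% of all genes passed in either direction). At an unadjusted p under 0.05, 18 members were higher and none was lower, and neither DESeq2 nor limma-voom called a lower member. The 12 were 11 of 13 tested class I genes and Cd274. Without the Xist-positive libraries 7 class I genes and Cd274 were called. None of 10 processing genes and none of 6 tested class II genes was called, by edgeR, DESeq2 or limma-voom; at an unadjusted edgeR p under 0.05, 3 processing genes and 3 class II genes were higher and none was lower. The median log2 fold change was 0.71 over tested class I genes, 0.21 over processing genes and 0.35 over tested class II genes, beside -0.01 over all genes tested. The filter passes a gene that is high in only 1 group, so these counts and medians describe the tested members alone, and the difference between classes was not tested. Bulk RNA cannot tell apart more cells of a type and more RNA per cell.

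**Figure D1:**
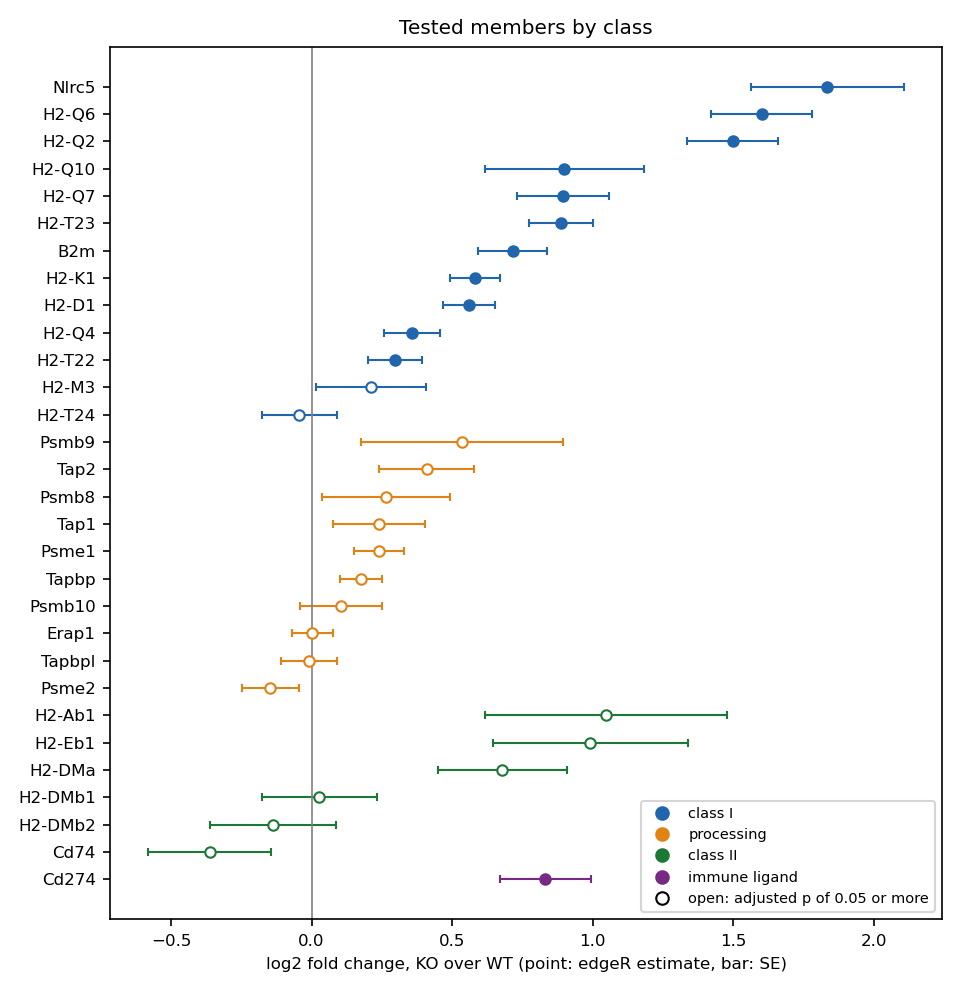
Log2 fold change (KO over WT, horizontal axis) of the 30 tested members, ordered by class, with the standard error as bar; filled points passed an adjusted p of 0.05. The filled points are 11 class I genes and Cd274, from 0.30 (H2-T22) to 1.83 (Nlrc5), and every processing and class II point is open.

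Some markers of other cell types were also higher in KO. Of 22 leukocyte markers 17 were tested, with 7 higher (Lyz2, Cd68, Csf1r, Laptm5, C1qa, C1qb and C1qc, of macrophages and other leukocytes) and 1 lower (Zbtb46, of dendritic cells), against 12.0% and 9.08% of all genes tested. Of the uncalled ones, Cd14, of monocytes, was at 6.37 CPM in KO and 8.99 CPM in WT (log2 fold change -0.50 ± 0.17, adjusted p = 0.0557), and Tyrobp, of myeloid cells, at 0.640 CPM in KO and 0.632 CPM in WT. The summed level of the leukocyte markers was 60.0 to 69.0 CPM in KO and 47.6 to 55.5 CPM in WT. Lyz2, the most abundant, was at 24.9 ± 3.21 CPM in KO and 16 ± 1.87 CPM in WT (SD, n = 3 each). Nkg7 was at 0 in all libraries, and the T cell marker Cd3e was at 0.00756 CPM in KO and at 0 in WT. Of 12 endothelial markers 6 were higher, with sums of 32.5 to 44.2 CPM in KO and 22.3 to 23.9 CPM in WT. Of 9 fibroblast and pericyte markers 7 were tested and 5 were higher, with overlapping sums of 66.7 to 122 CPM in KO and 62.3 to 85.6 CPM in WT. The mean class I heavy chain sum differed by 229 CPM between KO and WT. Marker sums do not give the amount of class I RNA in these cells, so their size cannot be set against that difference. The part of these cells in the class I values was not tested.

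The classical heavy chains H2-K1 and H2-D1 carried most class I reads. H2-K1 (ENSMUSG00000061232, chromosome 17, 33996017 to 34000347) stood at 351, 333 and 329.5 CPM in KO replicates 1 to 3, against 199.5, 227 and 251 CPM in WT replicates 1 to 3. Every KO library lay above every WT library. The log2 fold change was 0.58 ± 0.09 (SE), adjusted p = 0.00135. H2-D1 (ENSMUSG00000073411, chromosome 17, 35262730 to 35267499) was at 305, 289.9 and 294 CPM in KO and at 173, 206 and 224 CPM in WT, with a log2 fold change of 0.56 ± 0.09 and adjusted p = 0.0022. Both genes thus rose by a similar amount, and in both WT replicate 1 was the lowest library. Over all 24 heavy chain genes the summed level was 733, 696 and 697 CPM in KO against 424, 485 and 531 CPM in WT. H2-K1 and H2-D1 supplied 89.4% to 89.5% of that sum in KO libraries and 87.9% to 89.4% in WT libraries. The sum does not depend on how reads were divided among near-identical member genes, though reads left uncounted for matching several genes would be missing from it. Its KO to WT ratio was 1.48.

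B2m, the light chain shared by all class I molecules (ENSMUSG00000060802, chromosome 2, 122147686 to 122153083), was at 286, 204 and 294 CPM in KO and at 154, 170.3 and 153.5 CPM in WT. The groups did not overlap, but KO replicate 2 lay closer to WT than the other KO libraries. Its log2 fold change was 0.71 ± 0.12 (adjusted p = 0.00254), and it lay between 0.62 and 0.87 when each library was left out in turn. Per kilobase of annotated exon, B2m stood at 304 CPM in KO and 185 CPM in WT, H2-K1 at 115 CPM in KO and 76.8 CPM in WT, and H2-D1 at 115 CPM in KO and 77.9 CPM in WT.

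Nlrc5, which encodes the class I transactivator (ENSMUSG00000074151, chromosome 8, 94434356 to 94527272), had the largest fold change of the tested members at a low level. It was at 1.19, 1.2 and 0.998 CPM in KO, from 105, 114 and 98 reads, and at 0.255, 0.226 and 0.466 CPM in WT, from 22, 24 and 45 reads. The log2 fold change was 1.83 ± 0.27 (adjusted p = 0.00119). WT replicate 3 was the highest WT library and still lay well under the lowest KO library. Its level per kilobase of exon was 0.133 CPM in KO and 0.0372 CPM in WT.

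Non-classical heavy chains of the Q and T regions were higher in KO as well. The non-classical genes number 22 in the set, of which 9 were tested. Of these, 7 were higher (77.8%) and none was lower, against 12.0% and 9.08% of all genes tested. H2-Q2 was at 7.21, 5.24 and 4.86 CPM in KO and at 2.02, 2.14 and 1.97 CPM in WT (log2 fold change 1.5 ± 0.16, adjusted p = 0.00019). H2-Q6 was at 2.03, 1.78 and 1.77 CPM in KO and at 0.533, 0.678 and 0.621 CPM in WT (1.60 ± 0.18, adjusted p = 0.000232). WT libraries were close together in both genes, and the KO libraries were 2.82-fold and 3.03-fold higher, a larger change than in H2-K1 (1.5-fold); the difference between genes was not tested. H2-T23, whose product Qa-1 is a ligand of the NKG2A receptor of natural killer cells, was at 14.9, 15.3 and 16.8 CPM in KO and at 7.62, 8.0 and 9.82 CPM in WT, without overlap (0.89 ± 0.11, adjusted p = 0.000479). H2-Q7, a gene for the Qa-2 antigen, was at 1.83, 2.24 and 2.05 CPM in KO and at 1.02, 1.19 and 1.08 CPM in WT (0.89 ± 0.17, adjusted p = 0.00393), and its call was lost without the Xist-positive libraries (adjusted p = 0.125).

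The other called Q and T genes lay near the threshold. H2-Q4 was at 21.8, 17.9 and 19.1 CPM in KO and at 14.1, 15.7 and 16.1 CPM in WT (log2 fold change 0.36 ± 0.10, adjusted p = 0.0274). H2-T22 was at 21.1, 23 and 20.2 CPM in KO and at 17.1, 16.1 and 19.3 CPM in WT (0.30 ± 0.10, adjusted p = 0.0493). H2-Q10, in which the 3 WT libraries hold 15, 27 and 25 reads, was at 0.442, 0.504 and 0.346 CPM in KO and at 0.174, 0.254 and 0.259 CPM in WT (0.90 ± 0.28, adjusted p = 0.0437). The groups did not overlap in these genes either, but each call was lost when certain single libraries were left out: with any of 3 for H2-Q4, any of 5 for H2-T22 and any of 6 for H2-Q10. All 3 were lost without the Xist-positive libraries. H2-Q10 was also lost under DESeq2 (adjusted p = 0.0881), and H2-T22 under edgeR with library totals (0.0573) and without a filter (0.0562). H2-T24 was at 5.48, 5.49 and 6.75 CPM in KO and at 6.90, 6.05 and 5.33 CPM in WT (log2 fold change -0.04 ± 0.13, adjusted p = 0.841). H2-M3, whose product presents formylated peptides, was at 1.91, 2.01 and 1.59 CPM in KO and at 1.39, 1.34 and 2.02 CPM in WT (0.21 ± 0.20, adjusted p = 0.465), so the groups overlapped in both genes.

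Heavy chains of the M region were nearly silent. Of 12 M genes, H2-M3 alone passed the filter, and 6 had no count in any library, which allows up to 0.00526 CPM over the 6 libraries together and covers counting error only. The untested M genes with reads were H2-M10.2 with 19 reads in KO and 20 in WT, H2-M5 with 7 in KO and 11 in WT, H2-M9 with 5 in KO and 10 in WT, H2-M2 with 4 in KO and 1 in WT, and H2-M1 with 0 in KO and 1 in WT. H2-T3, the thymus leukemia antigen gene, had 12 reads in KO and 4 in WT, and H2-Q1 had 7 in KO and 1 in WT.

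**Figure D2:**
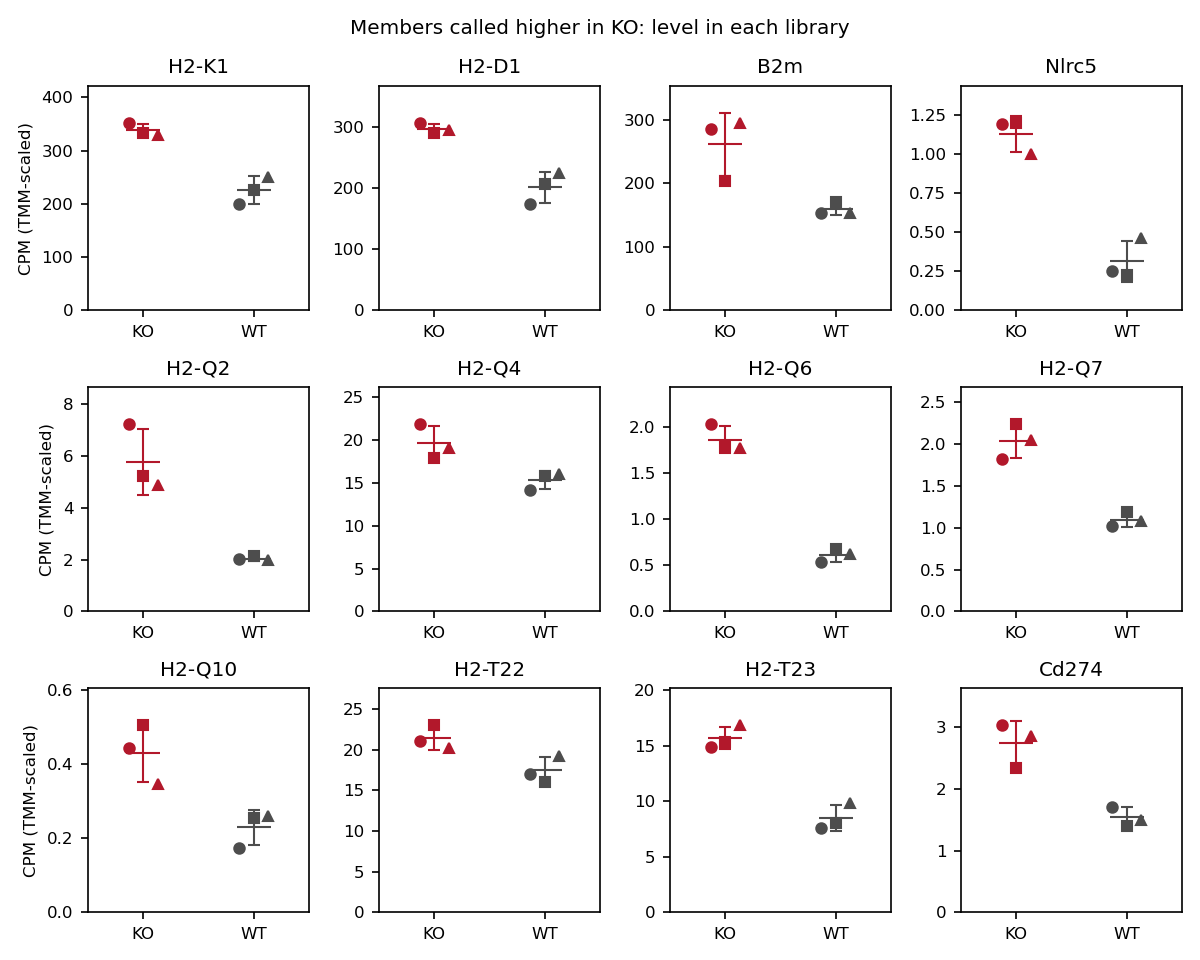
Level of the 12 called members in each library (vertical axis, CPM scaled by TMM factors, from 0), KO left and WT right. Circles, squares and triangles are replicates 1, 2 and 3, which were not treated as pairs, and the bar is the mean with its SD. In all 12 genes the lowest KO library lies above the highest WT library, which follows in part from choosing them by the test on these same libraries.

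The lowest KO library exceeded the highest WT library in 16 of the 30 tested members, against 20.6% of all genes tested, and the reverse held in 0, against 21.3%. The 4 such members that were not called were Psme1, Tapbp, H2-DMa and H2-Eb1.

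The promoters of heavy chain genes carry a known arrangement of regulatory elements: a kappa B site for NF-kappa B, an interferon-stimulated response element (ISRE), and a module that includes the CREB-binding X2 box and the CCAAT (Y) box bound by NF-Y. RefSeq windows of 250 bases before the transcript start (build GRCm38.p6) were found for 41 members, and Nlrc5 was not among them. Both strands were searched for GGGGATTCC (kappa B), GAANNGAAA (ISRE core), TGACG (X2 core) and CCAAT (Y box), and no base fell in matches of more than 1 of these kinds. The windows below show a classical heavy chain gene, a Q gene with a large fold change, a Q gene near the threshold, the light chain gene and a class II gene that was not called, 5′ to 3′ on the gene's strand, with motif matches in capitals. H2-K1 is chr17:34000348-34000597, minus strand. H2-Q6 is chr17:35424600-35424849, plus strand. H2-Q10 is chr17:35469839-35470088, plus strand. B2m is chr2:122147437-122147686, plus strand. H2-Eb1 is chr17:34305617-34305866, plus strand.
H2-K1: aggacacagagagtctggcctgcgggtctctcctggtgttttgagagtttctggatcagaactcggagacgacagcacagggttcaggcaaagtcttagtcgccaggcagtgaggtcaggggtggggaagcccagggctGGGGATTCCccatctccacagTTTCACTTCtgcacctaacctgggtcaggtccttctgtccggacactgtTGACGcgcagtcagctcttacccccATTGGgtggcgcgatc
H2-Q6: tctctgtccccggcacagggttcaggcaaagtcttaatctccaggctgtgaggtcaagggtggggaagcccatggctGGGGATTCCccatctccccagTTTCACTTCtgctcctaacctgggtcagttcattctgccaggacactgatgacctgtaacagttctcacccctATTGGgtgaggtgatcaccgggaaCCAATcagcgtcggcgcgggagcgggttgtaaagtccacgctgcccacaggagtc
H2-Q10: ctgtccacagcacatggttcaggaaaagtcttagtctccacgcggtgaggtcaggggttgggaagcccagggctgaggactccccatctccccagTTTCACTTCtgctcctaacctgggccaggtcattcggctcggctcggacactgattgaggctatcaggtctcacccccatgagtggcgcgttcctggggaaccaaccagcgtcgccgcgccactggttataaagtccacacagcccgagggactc
B2m: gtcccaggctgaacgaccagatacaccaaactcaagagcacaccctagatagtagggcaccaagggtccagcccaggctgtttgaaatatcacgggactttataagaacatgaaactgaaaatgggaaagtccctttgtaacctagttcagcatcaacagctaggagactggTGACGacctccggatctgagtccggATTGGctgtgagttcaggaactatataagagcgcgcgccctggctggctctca
H2-Eb1: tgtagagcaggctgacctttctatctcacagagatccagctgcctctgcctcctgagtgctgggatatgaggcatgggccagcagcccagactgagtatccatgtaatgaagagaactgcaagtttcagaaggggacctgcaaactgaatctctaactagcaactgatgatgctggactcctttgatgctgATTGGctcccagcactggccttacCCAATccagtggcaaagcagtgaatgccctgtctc

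In the H2-K1 window the order was kappa B, ISRE core, X2 core and Y box, starting 111, 90, 41 and 16 bases before the RefSeq start. H2-Q6 had the kappa B and ISRE matches at 173 and 152 bases and Y boxes at 79 and 55 bases, without TGACG. In H2-Q10 the ISRE core was the only match. B2m held the X2 core at 78 bases and a Y box at 53 bases, and H2-Eb1 had Y boxes at 59 and 35 bases, without TGACG. The B2m window also holds gaaactgaaa, a longer ISRE form that the searched letters GAANNGAAA do not match.

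Kappa B matches occurred in 4 of 23 class I windows (H2-K1, H2-D1, H2-Q6 and H2-Q7), against 0.213% of 32851 windows of the same length over all genes. The ISRE core was in 8 of 23 class I windows, against 6.31% of all windows, and in 0 of 8 processing and 0 of 8 class II windows. The kappa B and ISRE letters occur in heavy chain windows such as that of H2-K1, and other forms of these elements were not counted. The shares of these letters therefore cannot compare the classes. The X2 core was in 12 class I, 3 processing and 1 class II window (17.8% of all windows). Only TGACG was searched, and other forms of the X2 box were not counted, so these numbers cannot compare the classes either. The Y box was in 20 class I, 3 processing and 7 class II windows (33.8% of all windows). The Tap1 and Psmb9 windows overlap on opposite strands, so the X2 core and Y box matches in them are the same sites. ISRE core, X2 core and Y box stood together, in any order and on either strand, in 6 class I windows, against 0.304% of all windows. In H2-M2 the X2 core, at 236 bases, lay before the ISRE core, at 142 bases. In H2-Q4 the X2 core, at 73 bases, lay between Y boxes at 79 and 55 bases. These 6 were H2-K1, H2-D1, H2-Q4, H2-Q7, H2-M3 and H2-M2, of which H2-M3 was not called and H2-M2 was under the filter. H2-Q2 and H2-T23, which were called with larger fold changes than H2-K1, had a Y box as their only match. Cd274 had none of the searched letters in its window. Motif matches are descriptions of the letters, not of binding, and heavy chain genes share ancestry, so their windows are not independent of each other.

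**Figure D3:**
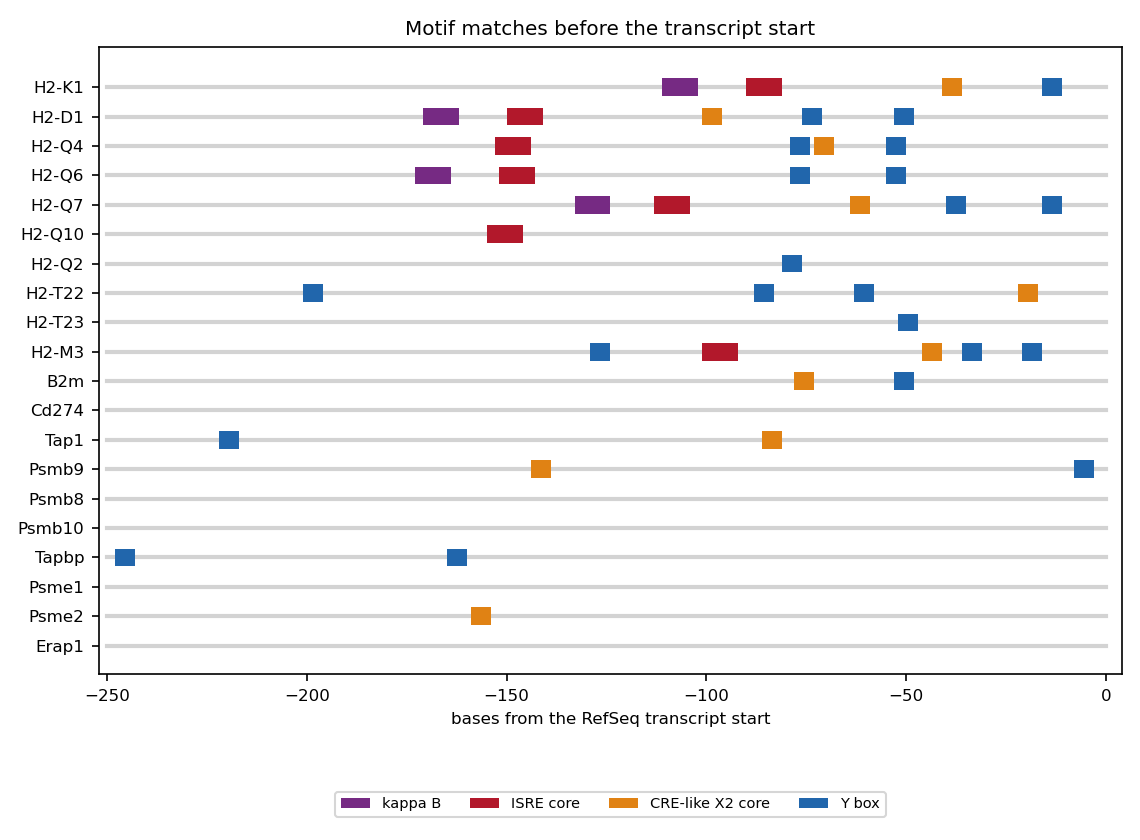
Positions of motif matches (coloured blocks) in the 250 bases before the RefSeq transcript start (horizontal axis, bases from the start) for tested class I genes with a window, Cd274 and 8 processing genes. Kappa B and ISRE blocks lie in heavy chain windows, and H2-Q2 and H2-T23 have a Y box block alone.

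Sequence shared between genes limits how far single heavy chain genes can be told apart. Of the 50-base stretches in annotated H2-K1 transcripts, 9.63% also occur in transcripts of other genes, and the share was 12.8% for H2-D1, 16.1% for H2-Q2, 19.1% for H2-Q10, 26.5% for H2-Q7, 35% for H2-Q6, 36.4% for H2-Q4 and 53.5% for H2-T22, whose most frequent partner was H2-T10. With stretches of 100 bases the shares were 0.957% for H2-K1, 3.59% for H2-D1, 5.09% for H2-Q2, 8.01% for H2-Q10, 12% for H2-Q7, 13% for H2-Q6, 14.1% for H2-Q4 and 31.5% for H2-T22. H2-Q7 and H2-Q10 shared most with each other, and the separate values of H2-Q4, H2-Q6, H2-Q7, H2-Q10 and H2-T22 are uncertain to that extent. B2m shared none of its 50-base stretches and Nlrc5 0.338%. The 11 H2 genes annotated as pseudogenes or of another non-coding type are not members, and their summed level was small, 3.25 ± 0.182 CPM in KO and 2.15 ± 0.515 CPM in WT (SD, n = 3 each).

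The peptide transporter genes did not pass the test. Tap1 was at 4.30, 4.75 and 4.83 CPM in KO and at 2.98, 3.94 and 4.82 CPM in WT (log2 fold change 0.24 ± 0.16, adjusted p = 0.314). Tap2 was at 4.51, 4.78 and 6.25 CPM in KO and at 3.16, 3.86 and 4.67 CPM in WT (0.41 ± 0.17, adjusted p = 0.104). WT replicate 3 reached into the KO range in both genes, and without it Tap2 had an adjusted p of 0.0424. Tapbp, the loading chaperone tapasin, was at 82.6, 82.3 and 84.1 CPM in KO and at 67.9, 73.0 and 79.5 CPM in WT (0.18 ± 0.08, adjusted p = 0.118). Its paralog Tapbpl was at 18.2 ± 1.55 CPM in KO and 18.3 ± 1.68 CPM in WT (SD, n = 3 each), and Erap1, the peptide-trimming aminopeptidase, at 54.0 ± 1.34 CPM in KO and 53.9 ± 2.36 CPM in WT (SD, n = 3 each).

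The catalytic subunits of the immunoproteasome differed widely in level and overlapped between groups. Psmb10 was at 9.36, 10.2 and 10.6 CPM in KO and at 6.98, 10.2 and 10.8 CPM in WT (log2 fold change 0.10 ± 0.15, adjusted p = 0.644). Psmb8 was at 1.24, 1.63 and 1.36 CPM in KO and at 0.915, 0.998 and 1.61 CPM in WT (0.27 ± 0.23, adjusted p = 0.433). Psmb9 was at 0.374, 0.504 and 0.530 CPM in KO and at 0.139, 0.358 and 0.466 CPM in WT (0.53 ± 0.36, adjusted p = 0.31). WT replicate 1 was low in all 3 genes. Relative to their constitutive counterparts Psmb5, Psmb6 and Psmb7, the summed level of these subunits was 0.0438, 0.0472 and 0.0516 in KO and 0.0337, 0.0419 and 0.0429 in WT. The constitutive subunits thus made up most of the catalytic subunit reads in every library.

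The activator genes of the proteasome pointed in different directions. Psme1 was at 57.4, 53.9 and 60.6 CPM in KO and at 43.4, 50.3 and 51.9 CPM in WT, without overlap (log2 fold change 0.24 ± 0.09, adjusted p = 0.0723). Psme2 was at 50.4, 55.1 and 50.2 CPM in KO and at 53.6, 51.9 and 67.0 CPM in WT (-0.15 ± 0.10, adjusted p = 0.318), and 28.3% of its 50-base stretches also occur elsewhere, mostly in Psme2b. WT replicate 1 was the lowest of the 6 libraries in 8 of 10 processing genes, 7 of 13 tested class I genes and 3 of 6 tested class II genes, against 25.7% of all genes tested. For class I the lowest library was always a WT one, in 7, 3 and 3 genes for WT replicates 1 to 3. Over all genes tested WT replicates 1 to 3 were lowest in 4520, 1658 and 3410, and KO libraries in the rest. The 25.7% is therefore not a like base for class I. Without WT replicate 3, Psme1 (adjusted p = 0.0452), Tapbp (0.0404) and Tap2 passed the threshold in the edgeR test. Tap1 and Psmb9 start next to each other on opposite strands, and the strand setting of the counting is unknown here, so reads near their starts cannot be told apart.

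**Figure D4:**
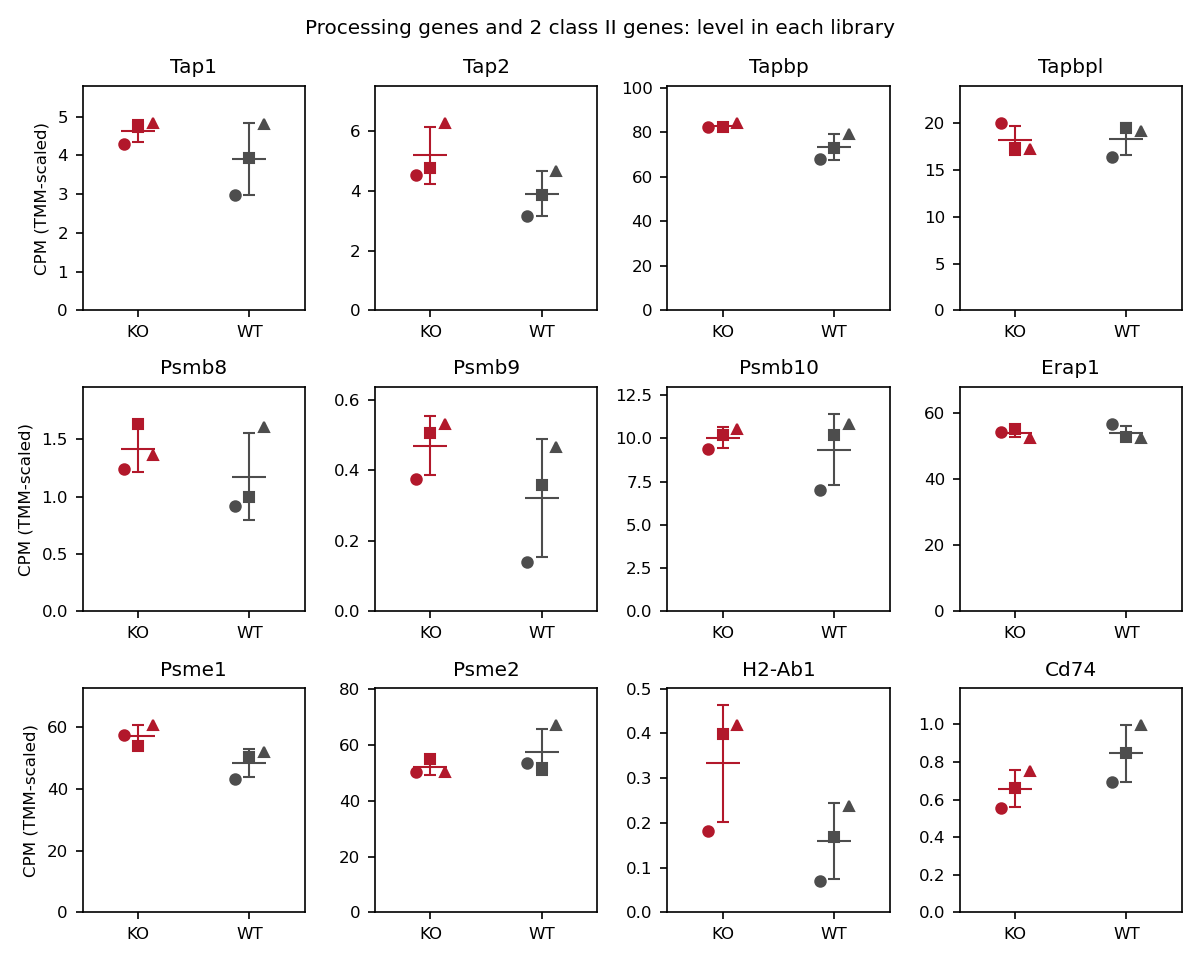
Level of the 10 processing genes, H2-Ab1 and Cd74 in each library (vertical axis, CPM scaled by TMM factors, from 0), KO left and WT right. Circles, squares and triangles are replicates 1, 2 and 3, which were not treated as pairs, and the bar is the mean with its SD. The groups overlap in all panels but Tapbp and Psme1, and in Tap1, Tap2, Psmb8, Psmb9 and Psmb10 WT replicate 1 is the lowest point.

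Of the 11 class II genes, 5 were under the filter with 0 to 17 reads over the 6 libraries, and the 6 tested genes had 142 to 602. The genes of the surface chains summed to 0.873, 0.777 and 0.845 CPM in KO and to 0.347, 0.329 and 0.621 CPM in WT. H2-Ab1 was at 0.181, 0.399 and 0.418 CPM in KO, from 16, 38 and 41 reads, and at 0.0695, 0.169 and 0.238 CPM in WT, from 6, 18 and 23 reads (log2 fold change 1.05 ± 0.43, adjusted p = 0.104, and 0.17 without the Xist-positive libraries). H2-Eb1 was at 0.692, 0.368 and 0.407 CPM in KO and at 0.266, 0.151 and 0.321 CPM in WT, without overlap (0.99 ± 0.35, adjusted p = 0.063). The alpha chain gene H2-Aa, needed to pair with the product of H2-Ab1, had 0, 1 and 1 reads in KO and 1, 1 and 6 reads in WT. Ciita had 1, 4 and 9 reads in KO and 1, 1 and 1 in WT, below the filter. Cd74, the invariant chain, was at 0.556, 0.662 and 0.754 CPM in KO and at 0.695, 0.847 and 0.994 CPM in WT (-0.36 ± 0.22, adjusted p = 0.256), so the groups overlapped.

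Among the genes of the peptide exchange molecule H2-DM, H2-DMa was at 0.771, 0.819 and 0.723 CPM in KO and at 0.359, 0.508 and 0.570 CPM in WT, without overlap (log2 fold change 0.68 ± 0.23, adjusted p = 0.0544). H2-DMb1 (1.06 ± 0.144 CPM in KO and 1.04 ± 0.206 CPM in WT) and H2-DMb2 (0.495 ± 0.0739 CPM in KO and 0.545 ± 0.0462 CPM in WT; SD, n = 3 each) overlapped between groups and share 22.7% and 25.9% of their 50-base stretches with other transcripts. H2-Oa and H2-Ob, whose products inhibit H2-DM, had 1 and 0 reads in KO and 3 and 0 reads in WT. H2-Eb2 had 1 read in KO and none in WT, and H2-Ke6 had 5 reads in KO and 11 in WT. Of the 50-base stretches of H2-Ke6, 70.5% also occur in Gm20427, so reads matching both genes may be missing from its count.

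Cd274, which encodes PD-L1, the ligand of the inhibitory T cell receptor PD-1 (ENSMUSG00000016496, chromosome 19, 29367455 to 29388095), was at 3.03, 2.33 and 2.85 CPM in KO and at 1.71, 1.4 and 1.5 CPM in WT. The groups did not overlap. Its log2 fold change was 0.83 ± 0.16 (adjusted p = 0.00509), and it stayed between 0.77 and 0.93 when each library was left out.

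Without the Xist-positive libraries, KO replicate 1 alone stood against the 3 WT libraries, with its spread taken from WT. H2-K1 then had a log2 fold change of 0.64 ± 0.15 (adjusted p = 0.0343), H2-D1 of 0.60 ± 0.15 (0.0496), B2m of 0.84 ± 0.13 (0.0045), Nlrc5 of 1.91 ± 0.38 (0.0182) and Cd274 of 0.98 ± 0.22 (0.034), all by the edgeR test. H2-Q2 (1.82 ± 0.19), H2-Q6 (1.73 ± 0.26) and H2-T23 (0.81 ± 0.18) also kept their calls. H2-Eb1 had 1.5 ± 0.42 (adjusted p = 0.0726). The calls of H2-Q4, H2-Q7, H2-Q10 and H2-T22 were lost, with log2 fold changes of 0.51, 0.74, 0.94 and 0.27.

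**Figure D5:**
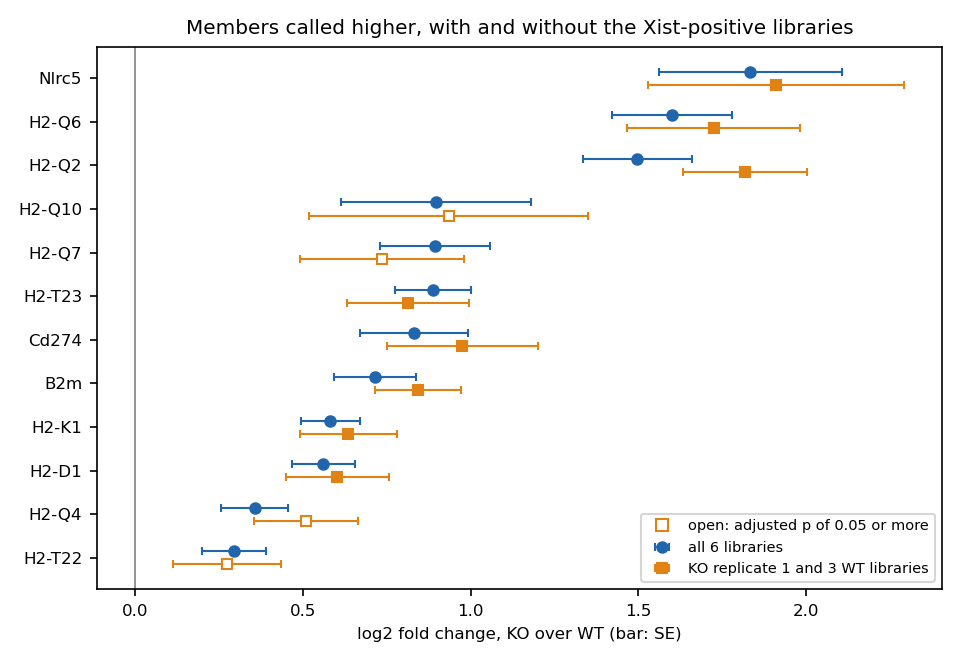
Log2 fold change (KO over WT, horizontal axis, bar: SE) of the 12 called members with all 6 libraries (circles) and with KO replicate 1 and the 3 WT libraries alone (squares, open where the adjusted p was 0.05 or more). The squares of H2-Q10, H2-Q7, H2-Q4 and H2-T22 are open, and all 12 lie above 0.

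Related genes outside the set were taken from lists by role. Of 15 genes for loading chaperones and the constitutive proteasome, 1 was higher (6.67%) and 2 were lower (13.3%), with a median log2 fold change of -0.10. Over all genes tested the shares were 12.0% and 9.08%. The higher one, Calr, encodes calreticulin, a chaperone of the class I loading complex, and stood at 1006 ± 68.6 CPM in KO and 805 ± 48.9 CPM in WT (log2 fold change 0.32 ± 0.08, adjusted p = 0.0209). Ganab, a glucosidase subunit, fell by 0.28 and Psme4, a proteasome activator, by 0.28 on the log2 scale (adjusted p = 0.0335 and 0.0487). Of 20 genes of the class II pathway 19 were tested, and 6 were higher (31.6%) and 1 lower (5.26%). The higher ones were all lysosomal: the proteases Ctsh (log2 fold change 0.59 ± 0.07), Ctsd (0.56 ± 0.12), Ctsb (0.45 ± 0.07), Ctss and Lgmn, and the thiol reductase Ifi30 (0.41 ± 0.08). March1, a ubiquitin ligase that removes class II from the cell surface, was at 0.277 ± 0.00728 CPM in KO and 0.470 ± 0.0583 CPM in WT (-0.76 ± 0.25, adjusted p = 0.0489). The class II transcription factor genes Rfx5, Rfxap, Rfxank, Nfya, Nfyb, Nfyc and Creb1 were not called.

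Among 16 interferon receptor and factor genes, 2 were higher (12.5%) and 2 lower (12.5%), near the 12.0% and 9.08% of all genes tested. Irf9, the DNA-binding subunit of the factor ISGF3, was at 24.6, 22 and 27.8 CPM in KO and at 13.8, 14.3 and 16.3 CPM in WT (log2 fold change 0.75 ± 0.11, adjusted p = 0.000965). Stat2, its partner, had 0.32 ± 0.10 (adjusted p = 0.0395). Ifngr1, a chain of the interferon gamma receptor, was at 112, 127 and 123 CPM in KO and at 149, 156 and 165 CPM in WT (-0.38 ± 0.08, adjusted p = 0.00561), and Nfkb1 fell by 0.23 (adjusted p = 0.0405). Irf1, a transcription factor of the interferon gamma response, was not called (0.12 ± 0.08, adjusted p = 0.314), and Jak1, the most abundant of the list, was at 250.3 CPM in KO and 250.9 CPM in WT. Of 12 MHC-like genes 9 were tested and 2 were higher, Raet1d, a gene for a ligand of the NKG2D receptor (0.85 ± 0.20, adjusted p = 0.0134), and Procr, the most abundant (0.34 ± 0.10, adjusted p = 0.0359).

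Genes between the class I genes were examined by position as well. The H2 members of chromosome 17 span 3.49 Mb, from 33996017 to 37483552, and 135 other coding genes lie within that span. Of the 86 that were tested, 13 (15.1%) were higher in KO and 3 (3.49%) lower, against 12.0% and 9.08% of all genes tested, with a median log2 fold change of 0.08.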

How the data were processed

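Libraries of total RNA from 6 cultures used a TruSeq RNA kit, per the labels' protocols. The authors deposited whole-number read counts per Ensembl gene, without normalization. Per the submitters' processing notes, the tools were Trimmomatic 0.38, STAR 2.7.1a and HTSeq 0.11.2 and the build mm10; their roles are not stated. Not given in the sources used here were the annotation, the strand setting and the handling of multiply mapped reads, which bear on near-identical heavy chain genes and overlapping genes. Totals were 86078636 to 106974842 counts per library, so precision of genes under about 1 CPM is limited by counting as well as by replicate spread.

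Symbols, coordinates and exon lengths came from GENCODE M21 (GRCm38, the assembly of mm10), which matched 48144 of 48526 IDs. The main test was edgeR 4.0.16 under R 4.3.3 (filterByExpr, TMM, quasi-likelihood fit with genotype as the term), which kept 17571 genes. Benjamini-Hochberg adjustment covered all of these, with a threshold of 0.05. Each standard error is the size of the log2 fold change divided by the root of its F statistic. CPM uses TMM-scaled totals. The test was checked on simulated counts. Replicate pairs differed by 22.7 to 77.1 in chi-square per degree of freedom, so none was a copy. Members, lists, tests and the naming rule were chosen with earlier results of these data known. The rule names Setd2, all called members, fixed core members whatever their test and, per related list, up to 4 called genes and the most abundant; other genes of those lists were named after their values were seen. Alternatives were other scalings, filters, DESeq2 1.42.0, limma-voom (limma 3.58.1), a replicate block, a covariate marking the libraries over 10 CPM of Xist, and leaving out libraries. Promoter windows came from the RefSeq table of GRCm38.p6. Figures used matplotlib 3.10.9. Some genes of the lists are not reported here.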

Additional observations from a re-analysis of the deposited data

How the results depend on the processing

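Members higher in KO numbered 8 to 15 under every alternative, beside 12, and none was lower under any. H2-K1, H2-D1, B2m, H2-Q2, H2-Q6, H2-T23 and Cd274 kept their calls throughout, as did Nlrc5 except with a minimum mean of 1 CPM, which removes it. A covariate for the Xist-positive libraries left 9 members called, and 1163 genes in all (878 higher, 285 lower) beside 3698; without those libraries there were 7 class I calls beside 11, and 907 genes in all (728 higher, 179 lower). Leaving out 1 library gave 1683 to 3766 calls over all genes, 1228 to 2142 of them higher and 455 to 1624 lower, 0 to 1 class II calls and 0 to 3 processing calls; the lowest totals were without KO replicate 1 (1683) and KO replicate 3 (1933), and the extra calls (Psme1, Tapbp, Tap2 and H2-DMa) came without WT replicate 3. Without a filter, H2-Ab1 and H2-Eb1 (2 class II genes) and 1 processing gene (Tap2) were called. Erap1, at 0.00 log2, changed sign with library totals (-0.001), without a filter (-0.015) and on leaving out single libraries (-0.02 to 0.05), and Psmb10 changed sign on leaving out single libraries (-0.054 to 0.222). The cause of these changes was not tested. Rescaling moved the median log2 fold change of all genes by at most 0.007.

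Same-numbered KO and WT libraries had correlations of deviations of 0.106, -0.26 and 0.071. These values cannot show whether the replicate numbers pair the samples, since each group had few libraries and KO mixed Xist-positive and Xist-negative ones. A fit with the replicate number as a block called 13 members, with H2-Ab1 (adjusted p = 0.037), H2-Eb1 (0.0424) and Tap2 (0.0402) added, by edgeR, making 2 class II calls and 1 processing call, and H2-T22 and H2-Q10 lost. The 19 members under the filter, among them 11 of 12 M region and 5 of 11 class II genes, had too few reads to test.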
